A study of Mus musculus with 3 samples.

Results

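Remote H3K27ac sites are described here: positions where leukaemic mouse precursor B cells carried acetylation of histone H3 at lysine 27 (H3K27ac) far from any trimethylation of lysine 4 (H3K4me3). The sites were chosen by peak position, a measured value: a site was taken as remote when its H3K27ac peak shared no base with an H3K4me3 peak and the gap to the nearest H3K4me3 peak on the same chromosome was more than 100 kb. This rule selected 1797 of the 29398 H3K27ac peaks on the placed autosomes and X, or 6.11% (exact 95% binomial interval 5.84 to 6.39%). They were 12.8% (interval 12.3 to 13.4%) of the 14039 peaks there without H3K4me3. Together they covered 3000718 bp, 4.57% of the acetylated length. The rule used the positions of both marks, so distance from H3K4me3 is a description of the sites and not a finding.

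The data are chromatin immunoprecipitation sequencing (ChIP-seq) of cultured mouse B-cell acute lymphoblastic leukaemia cells driven by Bcr-Abl, an oncogenic fusion kinase, with no stimulation or treatment. The 3 samples are 1 immunoprecipitate for H3K27ac, 1 for H3K4me3 and 1 with control immunoglobulin (IgG). All came from the same kind of culture: RPMI medium, to which 10% FBS, β-mercaptoethanol (5 µM) and L-glutamine (4 mM) were added. The IgG sample had no peak list here and was not analysed. Each mark has a single library, so there are no replicates to give an error, sequencing depth is unknown, and no test or p-value is given; intervals cover counting error over peaks only. Positions are on mm9, counted from 1. No mm9 annotation or sequence was used, so sites are named by position, the labelled cell type could not be checked against marker genes, and no sequence is shown.

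H3K27ac is deposited by the acetyltransferases p300 and CBP and marks active promoters and active enhancers, whereas H3K4me3 is laid down at promoters that recruit RNA polymerase II. Acetylation without H3K4me3, usually with H3K4me1 (not measured here), is the typical chromatin pattern of an active enhancer. In lymphocytes, enhancers can act on a promoter over long stretches of chromatin through looping, and those of the antigen receptor loci and of lineage regulators are well known examples.

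Acetylation thinned with distance from H3K4me3 but did not end. Counted from the outermost peak on the left of a chromosome to that on the right, territory more than 100 kb from H3K4me3 made up 1319 Mb, 52.2% of all territory outside H3K4me3 peaks. It held 1812 H3K27ac peak centres, or 1.37 per Mb, and 0.231% of its bases were acetylated. The corresponding densities were 7.92 per Mb at 10 to 100 kb and 21.2 per Mb within 10 kb, which were 5.76 and 15.4 times higher. Centres were counted here in place of whole peaks, which is why their number beyond 100 kb is slightly above 1797. A peak sharing bases with H3K4me3 was also counted when its centre lay outside H3K4me3. This raises the density within 10 kb, where 6114 centres were counted against 5231 peaks without H3K4me3 and with a gap up to 10 kb. Within the remote territory density went on falling, from 2.32 per Mb at 100 to 200 kb to 1.18 at 200 to 500 kb, 0.934 at 500 to 1000 kb and 0.426 beyond 1000 kb. The territory includes bases on which reads may not be placed, whose amount is not known here.

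**Figure D1:**
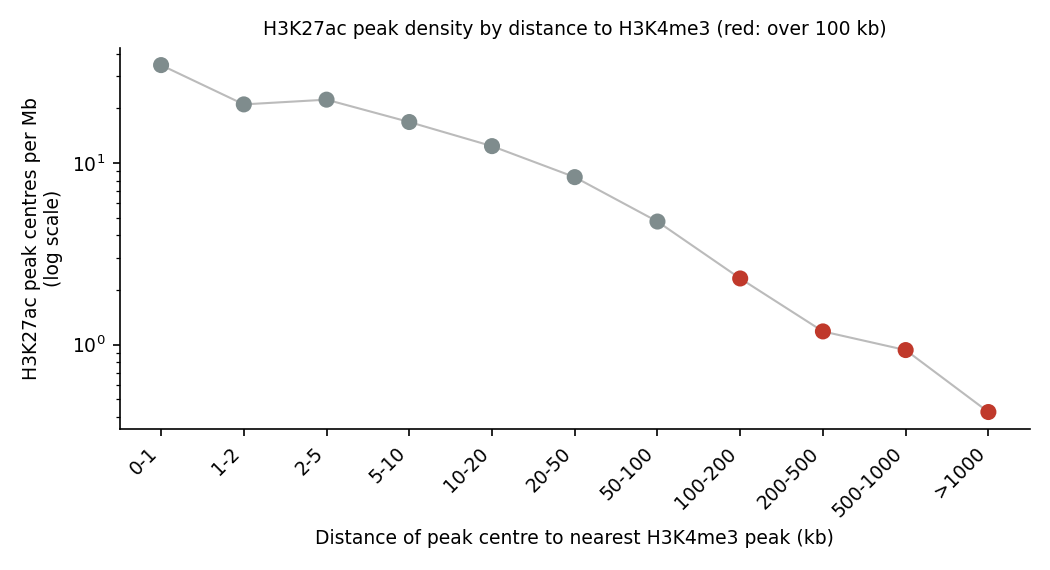
H3K27ac peak centres per Mb of territory (vertical axis, log scale) in each class of distance to the nearest H3K4me3 peak (horizontal axis, kb), with 1 point per class. All centres outside H3K4me3 are counted, also those of peaks that share bases with H3K4me3. Density fell from 34.6 per Mb within 1 kb to 0.426 beyond 1000 kb, and the 4 red points mark the remote territory.

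The remote peaks looked like other H3K27ac peaks that lack H3K4me3, and unlike those that carry it. Their median width was 1241 bp (interval 1180 to 1297 bp). When the gap to H3K4me3 was up to 10 kb, called near here, the median was 1183 bp (interval 1150 to 1216 bp). At 10 to 100 kb, called intermediate, it was 1302 bp (interval 1278 to 1337 bp). The interval of the remote peaks overlapped both. Peaks sharing bases with H3K4me3 were wider, at 2249 bp (interval 2226 to 2271 bp), with no overlap of intervals.

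Scores followed the same order. The score is the authors' value for each peak, is used here only to compare peaks within a list, and has many ties at 3100, called the ceiling. The median score was 198 for remote peaks (interval 179 to 209), 205 for intermediate peaks (interval 195 to 214), 168 for near peaks (interval 159 to 177) and 2426 for peaks with H3K4me3 (interval 2360 to 2496). The remote median was thus 29.8 above that of near peaks, without overlap of the intervals. This small difference was not stable: it was 7.16 with H3K27ac peaks within 1000 bp joined, and -1.92 without peaks scoring below 100 in either list. Of the remote peaks, 89 (4.95%, interval 4.00 to 6.06%) reached the ceiling, against 24.1% of all H3K27ac peaks, 4.17% of near peaks and 4.92% of intermediate peaks. A width of 4 kb or more was found for 94 of them (5.23%, interval 4.25 to 6.36%), against 10.9% of all peaks, 4.59% of near and 5.59% of intermediate peaks. At the other end, 565 remote peaks (31.4%, interval 29.3 to 33.6%) scored below 100, against 17.7% of all H3K27ac peaks. This share was 34.7% in near and 29.0% in intermediate peaks, so it was not particular to remote peaks. The middle 50% of remote peaks lay between 751 and 2083 bp in width and between 85.0 and 590 in score, so most were short, low-scoring intervals. Width and score ranked together within the remote peaks (Spearman's rho 0.92 over 1797 peaks of 1 library, as a description).

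**Figure D2:**
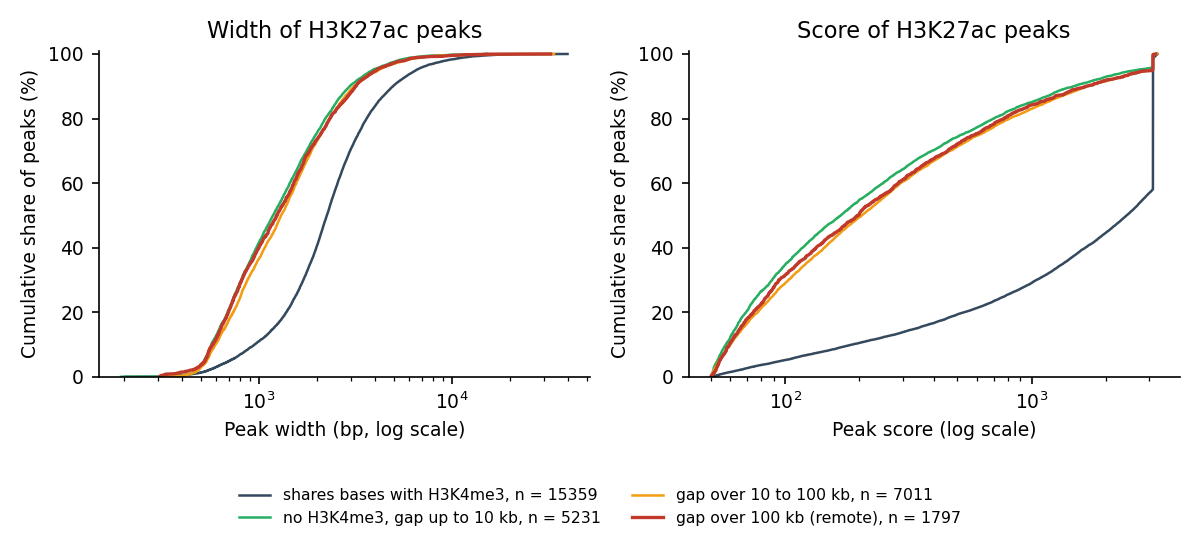
Cumulative share of peaks (vertical axes, percent) by width in bp (left) and by score (right), both on log scales, for 4 classes of H3K27ac peaks. The red curve of remote peaks runs between or beside the curves of the other 2 classes without H3K4me3, while the curve of peaks with H3K4me3 lies to the right (median widths 1241 and 2249 bp).

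Among H3K27ac peaks without H3K4me3, the remote share varied little with peak score. Remote peaks were 12.8% (interval 11.8 to 13.8%) of the 4411 such peaks scoring 50 to 100. At 100 to 200 they were 12.1% (interval 10.9 to 13.3%), at 1000 to 2000 they were 11.9% (interval 10.1 to 13.9%), and at or above the ceiling they were 13.7% (interval 11.1 to 16.5%). The intervals of all 7 score bands overlapped. Counted among all H3K27ac peaks, the remote share did fall, from 10.8% at scores of 50 to 100 to 1.25% at or above the ceiling, since high-scoring peaks mostly carry H3K4me3. Widths within a score band were alike as well. Between scores of 500 and 1000, for example, the median was 2206 bp in remote peaks (interval 2115 to 2302 bp), 2141 bp in intermediate and 2169 bp in near peaks, but 1632 bp (interval 1611 to 1663 bp) in peaks with H3K4me3. At or above the ceiling remote peaks measured 4641 bp (interval 4128 to 5263 bp) and peaks with H3K4me3 3369 bp (interval 3324 to 3413 bp). In each of the 7 bands the median of peaks with H3K4me3 was the lowest of the 4 classes.

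No loss of width or score with distance was seen among the remote peaks. The gap had a median of 205 kb (interval 198 to 214 kb), quartiles of 134 and 377 kb and a maximum of 3271 kb. It exceeded 500 kb for 326 remote peaks and 1 Mb for 61. Median width was 1198 bp (interval 1093 to 1285 bp) in the 572 peaks at 100 to 150 kb and 1275 bp (interval 1061 to 1595 bp) in the 61 beyond 1 Mb. Median score was 179 (interval 151 to 203) in the first of these groups and 202 (interval 100 to 278) in the second. Peaks at the ceiling made up 4.20% of the first (24 peaks, interval 2.71 to 6.18%) and 3.28% of the second (2 peaks, interval 0.400 to 11.3%). The intervals overlapped in each case, although those beyond 1 Mb are wide.

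Only a minority of the long stretches free of H3K4me3 held remote acetylation. Between consecutive H3K4me3 peaks there were 2597 stretches longer than 200 kb, the minimum in which a remote peak can lie. Remote peaks occurred in 712 of them (27.4%), and 1885 held none. Exactly 1 was found in 343 stretches, while 78 stretches with 5 or more held 669, or 37.2% of all remote peaks. A further 27 lay before the first or after the last H3K4me3 peak of a chromosome. Stretches with remote peaks were longer (median 660 kb) than those without (377 kb), which greater length alone must favour. Length was nonetheless a loose guide to the number: Spearman's rho was 0.30 over the 2597 stretches, as a description. The share with remote peaks was 11.5% (interval 9.26 to 13.9%) for stretches of 200 to 300 kb and 53.9% (interval 45.3 to 62.3%) for those over 2000 kb. Per Mb of remote territory the order was the opposite, with 4.45 peaks in the shortest and 0.689 in the longest class.

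The longest stretches without remote peaks show how empty this territory can be. The first, on chromosome 7 (39057408 to 46704226), measured 7647 kb and held no H3K27ac peak at all. Chromosome 6 had another without any H3K27ac peak, of 5832 kb (59160322 to 64991987). On the X chromosome a stretch of 5371 kb (39894670 to 45265252) held 1, which was not remote.

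**Figure D3:**
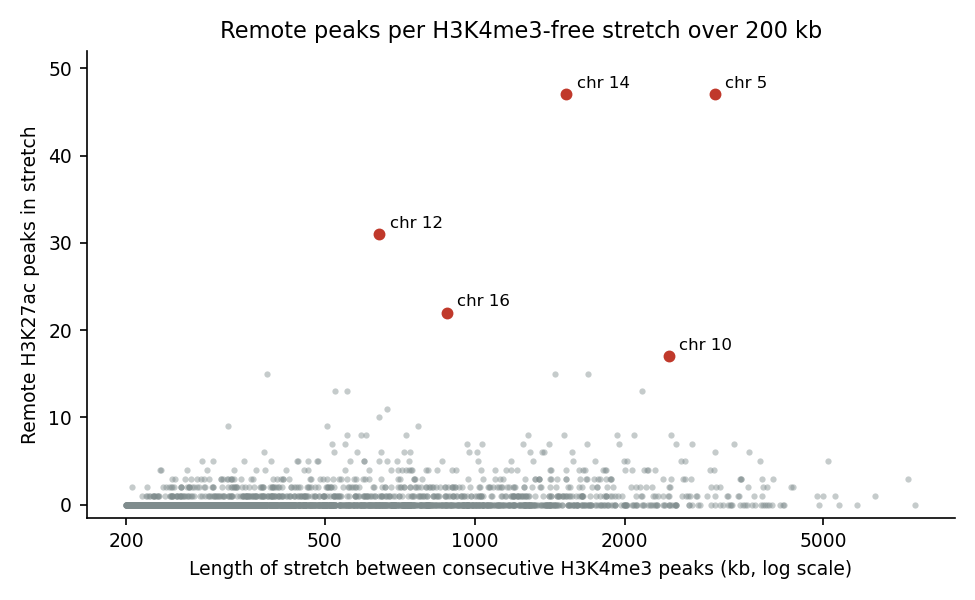
Each point is 1 stretch between consecutive H3K4me3 peaks longer than 200 kb, by its length in kb (horizontal axis, log scale) and the number of remote H3K27ac peaks in it (vertical axis). The 5 stretches with the most remote peaks are red and named by chromosome; most stretches hold fewer than 5.

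The richest stretches were led by chromosomes 5 and 14, with 47 remote peaks each. The stretch on chromosome 5 measured 3026 kb (9267312 to 12293343) and that on chromosome 14 measured 1528 kb (94291400 to 95818938). Next came a stretch of 643 kb on chromosome 12 (115618758 to 116262100) with 31; beyond the single H3K4me3 peak at its left border, a stretch of 383 kb (115233575 to 115616524) held another 15. A stretch of 880 kb on chromosome 16 (18879500 to 19759733) held 22, and the 2453 kb between 14467241 and 16920101 on chromosome 10 held 17. Composition differed between them. The chromosome 16 stretch had 6 peaks at the ceiling and the larger chromosome 12 stretch 5, whereas the chromosome 10 stretch had none, with a highest score of 1364. On chromosome 13 (75228255 to 75782218), 13 remote peaks had a median score of only 78.8.

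Remote peaks were about equally often solitary and grouped. Another H3K27ac peak lay within 12.5 kb of 908 of them (50.5%, interval 48.2 to 52.9%), against 66.2% of all H3K27ac peaks and 64.0% (interval 62.8 to 65.1%) of intermediate peaks. This share was 58.0% (interval 57.2 to 58.8%) in peaks with H3K4me3 and 98.5% in near peaks. At the other extreme, 452 remote peaks (25.2%, interval 23.2 to 27.2%) had no other H3K27ac peak within 100 kb, compared with 4.74% of all H3K27ac peaks, 5.65% of those with H3K4me3 and 0.899% of intermediate peaks. These contrasts are set in part by the rule. An H3K27ac peak sharing bases with H3K4me3 can be the neighbour of an intermediate peak within 100 kb. For a remote peak this is possible only where that H3K27ac peak extends beyond the H3K4me3 peak towards it. Solitary and grouped remote peaks were alike in width: the median was 1192 bp for the 452 (interval 1046 to 1293 bp) and 1189 bp for the 908 (interval 1122 to 1295 bp). They differed at the top of the score range. The ceiling was reached by 2.88% of the former (interval 1.54 to 4.87%) and 6.39% of the latter (interval 4.89 to 8.18%). These intervals just failed to overlap, but they are too narrow, since neighbouring peaks are not independent. This comparison was not computed without the dense bins described further on, so whether the contrast holds there is not known. The grouping depends on how peaks were divided when called: 226 remote peaks ended within 100 bp of another H3K27ac peak and 508 within 1000 bp. With H3K27ac peaks within 1000 bp joined first, the share with another within 12.5 kb was 32.1% of 1515.

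Joining remote peaks up to 12.5 kb apart gave 1246 clusters, of which 906 (72.7%) were single peaks, 230 were pairs and 110 held 3 or more. These 110 contained 431 remote peaks (24.0%) and 29.2% of the remote acetylated length. Their peaks were not wider than single ones by the median (1255 and 1264 bp), but 9.05% of them (39 peaks, interval 6.51 to 12.2%) reached the ceiling, against 3.42% of the single ones (31 peaks, interval 2.34 to 4.82%). Outside the dense bins described further on, the shares were 7.23% (24 of 332, interval 4.69 to 10.6%) and 3.25% (29 of 891, interval 2.19 to 4.64%), still without overlap. Peaks of 1 cluster lie side by side and are not independent, so these intervals are too narrow. Only 27 clusters had more than 10 kb of summed peak length. In all, 49 remote peaks belonged to a stretch of acetylation that continued, at this joining distance, into peaks nearer to H3K4me3.

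Ranked by summed peak length, the leading cluster was on chromosome 16 (19002499 to 19089169), where 12 peaks added up to 62.0 kb and 71.5% of the span was acetylated. It began with the widest remote peak, 32.4 kb (19002499 to 19034876), 123 kb from H3K4me3. Another peak, of 11.5 kb (19146124 to 19157590), also at the ceiling, lay farther along the same stretch. The cluster ranked second, on chromosome 14 (94907708 to 94966696), had 16 peaks and 39.9 kb and was far more isolated, with gaps of 616 to 674 kb. Of its 16 peaks 2 were at the ceiling, the wider measuring 14.6 kb (94935144 to 94949752), and the median score was 140. Such unevenness was common to the leading clusters.

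The next 4 clusters all lay on chromosome 12, within an extent of 444 kb. The longest had 8 peaks with 24.5 kb (115820719 to 115856767). It was followed by 9 peaks with 23.7 kb (115722572 to 115756080), 7 with 22.5 kb (115413211 to 115439147) and 6 with 22.2 kb (115771233 to 115804066). Each had 1 or 2 peaks at the ceiling and a lowest score between 53.5 and 61.2. The remaining 4 of the 10 had up to 21.0 kb each and lay on chromosome 15 (62634031 to 62658134), chromosome 18 (78670258 to 78692902), chromosome 14 (24437989 to 24460805) and chromosome 13 (32247832 to 32268937). The cluster of this last set on chromosome 14 had the largest gaps to H3K4me3 of all 10, 817 to 833 kb.

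**Figure D4:**
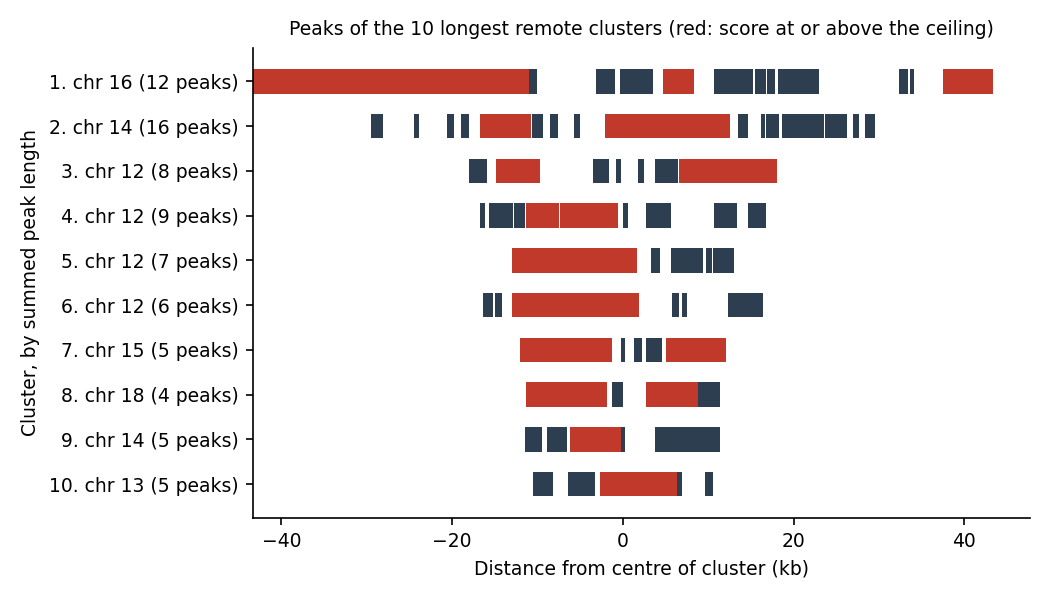
The 10 clusters of remote peaks with the largest summed length, 1 per row, drawn to scale as distance in kb from the centre of the cluster (horizontal axis). Each bar is 1 H3K27ac peak, red where its score is at or above the ceiling; every cluster has 1 to 3 red peaks, with dark peaks of various widths beside them.

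At the scale of 1 Mb, remote peaks occurred in 743 bins, with a median of 2 per bin, and 5 bins held 20 or more. These 5 contained 141 remote peaks, 7.85% of the total, and the next bin held 17. On chromosome 12 (115000001 to 116000000) there were 44 remote peaks covering 123 kb, 7 of them at the ceiling, among 67 H3K27ac and 2 H3K4me3 peaks. On chromosome 16 (19000001 to 20000000) there were 22, covering 98.9 kb, with 6 at the ceiling. A pair of neighbouring bins on chromosome 14 (94000001 to 96000000) held 24 and 23, each with 2 at the ceiling. In a gene table of another build, GRCm38.p6, all 183 heavy chain variable gene symbols (Ighv) are on chromosome 12, all 3 lambda symbols (Iglv) on chromosome 16 and all 162 kappa symbols (Igkv) on chromosome 6, which had none of the 5 bins; these gene segments are joined by recombination in developing B cells to form antibody genes. This lookup was not planned and covered only these symbols, none of which are on chromosomes 5 or 14. The remote peaks were not assigned to these genes, because the coordinates belong to different builds. Sharing a chromosome does not place the peaks at these genes, and any link was not tested.

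The dense bin on chromosome 5 (11000001 to 12000000) was the only one of the 5 without a peak at the ceiling. Its 28 peaks were all the H3K27ac peaks of the bin, and it held no H3K4me3. Their median width was 3030 bp (interval 2533 to 3218 bp) and their median score 520 (interval 393 to 677). The median width was lower on chromosome 12, at 1527 bp (interval 1171 to 2204 bp), and in both bins of chromosome 14, while that on chromosome 16, 2150 bp, had an interval (1278 to 4792 bp) that included the one on chromosome 5. The highest score on chromosome 5 was 1101 and the widest peak 3737 bp.

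The chromosome 5 peaks also recurred along the bin, a pattern singled out after the values were seen. In 11 places between 11039261 and 11925222 a peak of 2344 to 3737 bp was followed, after 1444 to 2596 bp, by a second of 2250 to 3356 bp. Only peaks of at least 2000 bp within the bin were paired. Scores in these pairs ran from 314 to 1101. Successive pair centres were 55.3 to 163 kb apart (mean 87.8 kb, SD 28.7 kb over 10 steps), a coefficient of variation of 32.6%. These values depend on the limits used for pairing. The step of 163 kb spans neighbouring peaks scoring 302 and 571, left unpaired because the first was narrower than 2000 bp. Another close pair of peaks wider than 2000 bp lay just before the bin and was not counted. All 28 peaks of the bin formed 13 clusters, whose centres were 24.4 to 92.3 kb apart, with a mean of 73.2 kb and an SD of 19.2 kb over the successive steps, a coefficient of 26.2%. In the 14 bins of the genome with at least 6 clusters of remote peaks, the coefficient for clusters had a median of 87.0% and ran up to 178%; the next lowest was 49.2%, in a bin on chromosome 13 with 6 clusters. No mm9 sequence was used, so the DNA under the pairs was not compared, and the sources used here do not say how reads with several matches were treated.

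**Figure D5:**
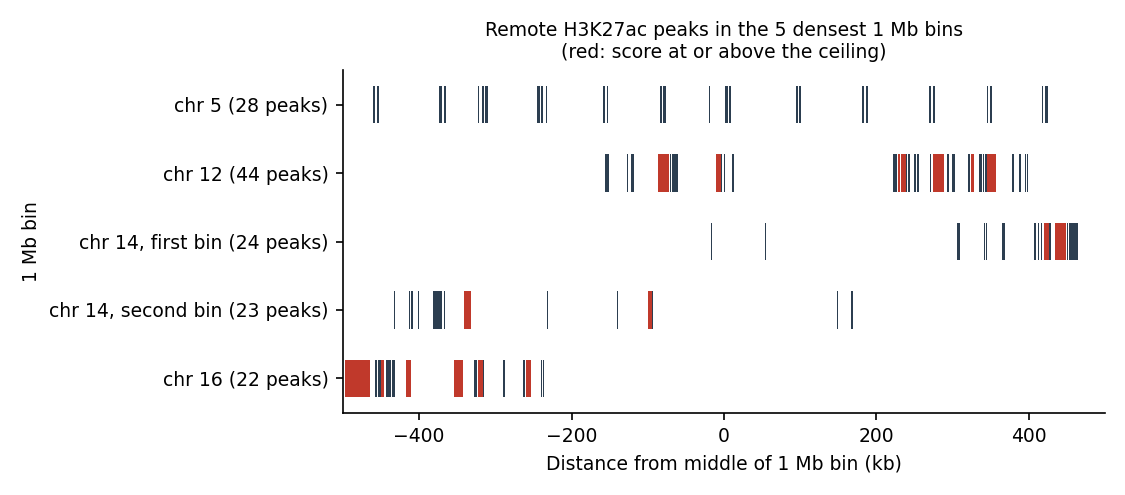
Remote H3K27ac peaks in the 5 bins of 1 Mb that held 20 or more, 1 bin per row, as distance in kb from the middle of the bin (horizontal axis); red peaks score at or above the ceiling. On chromosome 5, 22 of the 28 peaks form 11 pairs spread along the bin, counting only peaks of at least 2000 bp. None of the 28 is red, whereas on chromosomes 12, 14 and 16 the peaks are bunched and include red ones.

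Sites very far from any H3K4me3 were found as well. The most distant from H3K4me3 were 2 neighbouring peaks on chromosome 14, at 110442014 to 110443122 (1109 bp, score 287) and 110445057 to 110447813 (2757 bp, score 924), with gaps of 3.27 Mb. Next was a peak of 1488 bp on chromosome 7 (76818672 to 76820159) with a score of 96.4, 2.03 Mb from H3K4me3 and equally far from any other H3K27ac peak. They were followed by another pair, on chromosome 17 (59317297 to 59319917 and 59328824 to 59329673), with scores of 1380 and 80.7. Of the 10 most distant peaks, 6 scored below 100, and the highest score was 1731, on chromosome 10 (64676895 to 64680377).

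By score, only 4 remote peaks exceeded the ceiling. They lay on chromosome 14 (37128662 to 37131837, score 3177), chromosome 7 (94969861 to 94975429, 3163), chromosome 15 (62060184 to 62063137, 3123) and chromosome 11 (68012140 to 68016251, 3119). The peak on chromosome 14 stood alone, 157 kb from the next H3K27ac peak and 544 kb from H3K4me3. Whether scores above the ceiling mark stronger peaks than those tied at it is not known. The 89 peaks at or above it measured 2246 to 32378 bp and lay on every placed autosome except 9 and on X. By number they were led by chromosomes 12 (12 of 156 remote peaks), 16 (10 of 95) and 14 (9 of 143). Relative to its remote peaks, chromosome 11 (6 of 69) stood above chromosomes 12 and 14. The dense bins held 7 of those on chromosome 12, 6 on chromosome 16 and, in each of its 2 bins, 2 on chromosome 14.

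Of the 10 widest remote peaks, 3 were on chromosome 12 (14.9, 14.6 and 11.4 kb), 2 on chromosome 16 and 1 on chromosome 14. The others were on chromosome 2 (13327729 to 13339031, 11.3 kb), chromosome 15 (62634031 to 62644810, 10.8 kb), chromosome 18 (5801203 to 5811394, 10.2 kb) and chromosome 13 (12892947 to 12902558, 9.61 kb). The last had its next H3K27ac peak 81.1 kb away. All 10 scored 3100.

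The H3K4me3 peaks bordering remote acetylation scored lower than H3K4me3 peaks in general. Remote peaks had 828 different nearest H3K4me3 peaks, with a median score within the H3K4me3 list of 1022 (interval 745 to 1427). Their widths had a median of 1509 bp (interval 1376 to 1670 bp). Over all 18075 H3K4me3 peaks the medians were 3100 and 1808 bp. The 3497 other H3K4me3 peaks that bordered a stretch over 200 kb were closer, with a median score of 1487 (interval 1205 to 1815) and a width of 1600 bp (interval 1529 to 1673 bp), and their intervals overlapped those of the 828. H3K27ac was present on 82.7% of the 828 (interval 80.0 to 85.2%) and on 77.4% of the 3497 (interval 75.9 to 78.7%), without overlap of the intervals, but both shares were below the 86.1% (interval 85.6 to 86.6%) over all H3K4me3 peaks. Scores below 100 were found for 140 of the 828 (16.9%, interval 14.4 to 19.6%), against 14.8% of the 3497, with overlapping intervals, and 11.9% (interval 11.5 to 12.4%) of all H3K4me3 peaks. These weak peaks were the nearest for 326 remote peaks. When H3K4me3 peaks below 100 were left out, 2287 H3K27ac peaks met the rule, so its outcome depends on weak H3K4me3 calls.

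Chromosomes differed in how much of their acetylation was remote. The share of H3K27ac peaks was highest on chromosome 14 (143 of 1166, 12.3%, interval 10.4 to 14.3%), chromosome 18 (97 of 855, 11.3%, interval 9.30 to 13.7%), chromosome 12 (156 of 1422, 11.0%, interval 9.39 to 12.7%) and X (86 of 786, 10.9%, interval 8.85 to 13.3%). It was lowest on chromosome 19 (23 of 1009, 2.28%, interval 1.45 to 3.40%) and chromosome 7 (43 of 1737, 2.48%, interval 1.80 to 3.32%). Without the dense bins the share became 8.58% on chromosome 14, 8.13% on chromosome 12, 6.85% on chromosome 16 (from 8.74%) and 6.46% on chromosome 5 (from 7.79%), a comparison added after the values were seen. Fewer H3K4me3 peaks leave more remote territory, so these shares are set in part by the rule.

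Set against the territory available, the order changed. Chromosome 12 had 2.42 remote peaks per Mb of remote territory, chromosome 18 had 2.16, and chromosomes 5 and 14 had 2.15 each. This order rested on the dense bins: without them and their territory, also a comparison added later, chromosome 12 had 1.76 per Mb, chromosome 5 had 1.78, chromosome 14 had 1.48 and chromosome 16 had 1.43 (from 1.84), all below chromosome 18. The X chromosome, where 67.9% of the territory was remote, had 0.795 per Mb, and chromosome 7 had the fewest, 0.543. The remote peaks of X were also the shortest by median, at 932 bp (interval 825 to 1159 bp), although this interval overlapped that of the 105 remote peaks of chromosome 2, for example (901 to 1400 bp). The X chromosome was thus high by share of peaks and low by density.

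At the limit of the rule, the 5 peaks just inside had gaps of 100052 to 100232 bp, widths of 373 to 737 bp and scores of 57.9 to 63.9. The 5 just outside had gaps of 99631 to 99987 bp, widths of 1075 to 4233 bp and scores of 161 to 3100. So few peaks do not show a step at the limit. The median score was 179 in the 572 remote peaks at 100 to 150 kb and 205 in intermediate peaks.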

How the data were processed

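Peaks were called by the authors with MACS, and positions are on mm9, per the submitters' processing notes. The sources used here give no aligner, read filter or program version. Each deposited list comes from 1 library and gives every peak's position and score. The deposited score is the authors' own; no header or label defines it. Scores start at 50.01 in either list and are exactly 3100 for 6863 peaks of H3K27ac and 9042 of H3K4me3. Read depth is unknown.

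From these lists the gap between edges of each H3K27ac peak and the nearest H3K4me3 peak was computed. Left out were 70 H3K27ac and 67 H3K4me3 peaks on Y or unplaced contigs. Groups come from sample titles. Shares carry Clopper-Pearson 95% intervals and medians order-statistic 95% intervals; no test between samples was possible. Named positions are the 10 most distant, widest and highest-scoring peaks, the 5 nearest each side of the limit, the 10 leading clusters and stretches, and 1 Mb bins with 20 or more members; text gives the main ones. Members, limits and lists were chosen with earlier results of these data known. Alternatives covered distance, score, joining, chromosomes and dense bins. Gene annotation, sequence and motif analyses were planned only for a genome of the same build and were not made. A gene table of another build, GRCm38.p6, served only for the unplanned lookup of the chromosomes of immunoglobulin symbols. Steps were tested on simulated data. Python 3.11.15, NumPy 2.4.6, pandas 2.3.3, SciPy 1.17.1 and Matplotlib 3.10.9 were used.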

Additional observations from a re-analysis of the deposited data

How the results depend on the processing

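Apart from the per-chromosome values without dense bins, alternatives gave 68 values: 47 were inside the reported interval (for counts, within 1.5 times), 19 were outside it and 2 changed sign. A gap over 50 kb gave 3396 remote peaks (11.6% of H3K27ac peaks) in 2309 clusters, and a gap over 200 kb gave 928 (3.16%) in 622 clusters. Both numbers of peaks follow from the limit itself. Of the 928 peaks, 53.2% had another H3K27ac peak within 12.5 kb. With both lists limited to scores from 100, the share was 6.61%, median width 1695 bp, median score 375 and the share with a close neighbour 43.3%. There the remote minus near difference in median became -15.5 bp for width (58 bp as reported) and -1.92 for score (29.8 as reported); fewer weak peaks were compared. The score difference was 18.7 with H3K4me3 alone limited to 100 and 24.7 without dense bins, where the intervals of the medians overlapped. With only H3K4me3 peaks limited to 100 the share was 7.78%. Joining H3K27ac peaks within 1000 bp gave a median width of 1520 bp, a median score of 230 and 32.1% with a close neighbour. Without dense bins the share was 5.67%, and 47.2% had a close neighbour. With neighbours counted within 5 or 25 kb the latter was 41.4 or 59.1%. Distances from peak centres and autosomes alone moved no value listed here outside its interval. No paired analysis was possible because there is 1 sample per mark. Depth is unknown, and weak H3K27ac or H3K4me3 below the calling limit would go unseen, which limits both the number of remote sites and their distance.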
